A study of Sus scrofa with 16 samples.

Results

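The natriuretic peptide system was followed through 9 genes: the peptides *NPPA*, *NPPB* and *NPPC*, the proteases *CORIN* and *FURIN*, the receptors *NPR1*, *NPR2* and *NPR3*, and *MME*, which encodes the degrading enzyme neprilysin. The list follows from the roles of the genes in the system, and all 9 had an entry among the 22629 genes of the tables, *MME* under its Ensembl ID ENSSSCG00000011723 and the others by symbol. RNA of left ventricular myocardium came from 8 pigs operated on at 1 month of age, 4 with ischemia/reperfusion (IR) and 4 with a sham operation. In the IR pigs the left anterior descending artery was occluded for 1 h below its second diagonal branch and then reopened, and IR pigs were given heparin. In sham pigs the suture was placed but not tightened. After 4 weeks a scar zone and a border zone sample were taken from each heart, giving 16 samples, with 2 females and 2 males in each surgery group. Scar zone names a site at or below the suture, and was sampled in sham pigs too, which had no occlusion. In IR pigs such a sample mixes damaged with surviving muscle.

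Atrial natriuretic peptide (*NPPA*) and B-type natriuretic peptide (*NPPB*) are hormones of heart muscle that are released under wall stretch and lower blood volume and pressure. Both are made as longer precursors: corin, a protease on the surface of cardiomyocytes, cuts the atrial precursor, and furin, a protease of the secretory pathway, cuts the precursors of the B-type and C-type peptides. NPR1 is the guanylyl cyclase receptor of the atrial and B-type peptides and makes cyclic GMP, NPR2 is the corresponding receptor of the C-type peptide (*NPPC*), and NPR3 binds all 3 peptides and removes them. In the ventricle *NPPA* and *NPPB* are abundant before birth, decline afterwards and are known to return in overload and injury. *NPPA* and *NPPB* are neighbouring genes in the RefSeq pig gene table.

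The estimated counts of a sample summed to between 15427663 and 49045206. Taken as the limit of detection, 3 counts corresponded to 0.0612 to 0.194 CPM (counts scaled to the size of the library), for counting error only. This limit leaves out a further scaling factor of each library (TMM, 0.883 to 1.18), which the CPM of genes below include. The cardiomyocyte markers *TNNT2*, *TNNI3*, *MYBPC3*, *ACTN2*, *RYR2* and *ATP2A2* were abundant in every sample, and their summed level was 15700 to 27464 CPM. Atrial markers went apart: *SLN* reached at most 0.851 TPM and *BMP10* 0.215 TPM, while *MYL4* ranged from 1.64 to 66.5 TPM, *NR2F2* from 4.85 to 16.4 TPM and *GJA5* from 6.07 to 15.4 TPM. One library went against its label in part. In the scar zone sample of female IR pig 14 there were 65.6 estimated counts of the Y-linked gene *DDX3Y* and 6 of *KDM5D*, against 8.20 to 20.7 and 0 in the other 7 female libraries and at least 1408 and 88 in the males, so the fitted scar zone values of the members are also given without this pig.

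Levels of the 9 genes differed widely, and they are compared between genes in TPM, which is scaled for depth and for transcript length. Over the 16 samples the median was 142 TPM for *NPPA*, 88.2 for *NPPB*, 38.3 for *CORIN*, 30.2 for *FURIN*, 9.03 for *NPR1*, 7.09 for *NPR2*, 6.13 for *NPR3*, 3.33 for *MME* and 0.192 for *NPPC*. The 2 leading genes were also the least steady. *NPPA* ranged from 1.92 to 1606 TPM and *NPPB* from 3.14 to 798 TPM, so both reached below *CORIN* and *FURIN* in some samples and far above them in others. *CORIN* was above *FURIN* in 16 of 16 samples, with a ratio of 1.00 to 2.07. The 3 receptors lay close together, at 5.08 to 14.8 TPM, and their ranges overlapped.

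The SD of log2 CPM over the 16 samples was 2.74 for *NPPB* and 2.18 for *NPPA*, which exceeded 99.9% and 99.8% of the 14278 genes tested in all samples. *MME* followed with 1.10, above 96.8% of genes. At the other end, *NPR2* varied with an SD of 0.20, less than the median gene at 0.30. *NPPA*, *NPPB* and *MME* thus spanned 14.6-fold or more between samples, while *CORIN*, *FURIN* and the 3 receptors stayed within 2.68-fold in TPM.

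*NPPB* was the only member whose scar zone values did not overlap between the operations. In the scar zone it measured 441, 228, 551 and 151 CPM in IR pigs 2, 9, 11 and 14, and 19.0, 2.67, 5.53 and 109 CPM in sham pigs 4, 5, 12 and 13. Every IR pig was above every sham pig, also within the females (pigs 2 and 14 against 4 and 5) and within the males, and the gap was narrow between IR pig 14 and sham pig 13. The means were 343 ± 185 against 34.0 ± 50.3 CPM (SD, n = 4 each), a 10.1-fold ratio, and a two-sided exact permutation test of log2 CPM gave p = 0.0286, the smallest that 4 against 4 pigs allow. Of all 14278 genes, 2.21% were likewise higher in IR scar zone samples with no overlap.

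*NPPA* was high in 3 of the 4 IR scar zone samples. The values were 314, 313, 146 and 19.5 CPM in IR pigs 2, 9, 11 and 14 and 35.5, 12.6, 0.578 and 48.8 CPM in sham pigs 4, 5, 12 and 13. IR pig 14 lay inside the sham range, and sham pig 12 was far below all others with 16 estimated counts. The means were 198 ± 143 CPM and 24.4 ± 21.8 CPM (SD, n = 4 each), an 8.12-fold ratio, and the exact permutation test gave p = 0.0857.

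**Figure D1:**
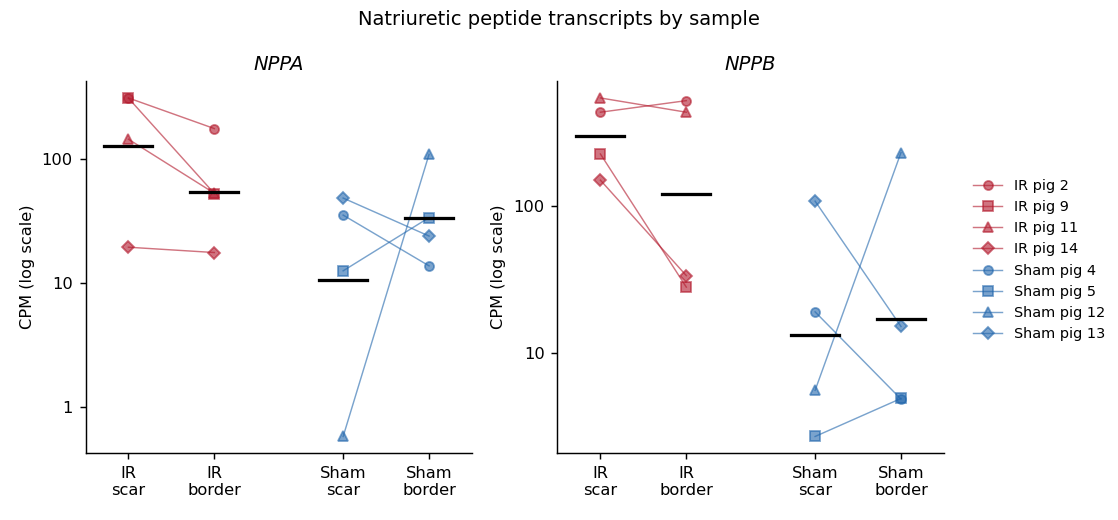
CPM of *NPPA* (left) and *NPPB* (right) on a log axis for each sample. Lines join the scar and border zone of a pig, symbols mark pigs, and black bars are geometric means of 4 pigs. The 4 IR scar zone values of *NPPB* lie between 151 and 551 CPM, above the sham scar zone at 2.67 to 109 CPM, and both genes are far higher in the border than in the scar zone of sham pig 12.

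A gene was called where its adjusted p did not exceed 0.05 and its fold change was 2 or more. In the scar zone 0 of the 8 members tested were called, as were 0% of the 14023 genes (edgeR quasi-likelihood test, Benjamini-Hochberg adjustment), and DESeq2 called 0 members beside 37 genes higher and 15 lower in IR. At the unadjusted p with the same fold change, 2 of the 8 members were higher in IR, *NPPA* and *NPPB*, where 2.74% of all genes were. DESeq2 also gave 2, where 387 of 14023 genes were higher. The fitted log2 fold change of *NPPB* was 3.33 ± 1.04 (SE; unadjusted p = 0.0101, adjusted p = 0.438) and it ranked 286 of 14023 by p. For *NPPA* it was 3.02 ± 1.09 (unadjusted p = 0.0207, adjusted p = 0.438), at rank 617. *NPPC* held 0 to 7 estimated counts in any sample and fell under the filter on low counts. With no filter edgeR put it at -0.17 ± 0.82 for scar samples (adjusted p = 0.943) and 0.57 ± 0.70 for border samples (adjusted p = 0.947), as log2 fold changes.

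Single pigs bore on these values. Without IR pig 14 the log2 fold change was 3.39 for *NPPA* and 3.57 for *NPPB*, and it was -0.49 for *CORIN*, -0.47 for *FURIN*, -0.10 for *NPR1*, 0.32 for *NPR2*, -0.11 for *NPR3* and 0.18 for *MME*. Of these 6 only *NPR2* then had an unadjusted p under 0.05 (edgeR, unadjusted p = 0.0427, adjusted p = 0.283), at less than a fold change of 2. Without this pig 2389 of all 14283 genes had an unadjusted p of at most 0.05, in either direction. Without sham pig 13, whose *NPPB* was the highest of the sham scar zone, *NPPB* stood at 5.23. Without sham pig 5 the unadjusted p of *NPPA* was 0.0552 (edgeR), which left 1 member past the unadjusted threshold, beside 267 of 14290 genes higher. The samples are whole tissue, in which fewer cells of a type and less RNA per cell cannot be told apart. Fibroblast markers were high in 2 of the 4 IR scar zone samples: their summed level was 24398 and 33176 CPM in pigs 9 and 11, 5932 and 4753 CPM in pigs 2 and 14, and 5596 to 7433 CPM in the sham scar zone. The part of these levels in the peptide values was not tested.

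In the border zone both peptides overlapped between the operations. *NPPB* measured 529, 28.1, 441 and 33.7 CPM in IR pigs 2, 9, 11 and 14 and 4.82, 4.86, 233 and 15.1 CPM in sham pigs 4, 5, 12 and 13. *NPPA* measured 178, 53.1, 53.3 and 17.7 CPM in the same IR pigs and 13.8, 33.9, 109.8 and 24.1 CPM in the same sham pigs. Pig 12 was the high sham sample for both, and it stood above 2 IR pigs for *NPPB* and above 3 for *NPPA*.

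The border zone means were 258 ± 264 against 64.6 ± 113 CPM for *NPPB* and 75.4 ± 70.1 against 45.4 ± 43.7 CPM for *NPPA* (SD, n = 4 each). Exact permutation tests gave p = 0.171 and p = 0.457. Of 14278 genes, 0.812% were higher in the 4 IR border zone samples with no overlap, and neither peptide was among them. The fitted log2 fold changes were 2.01 ± 1.34 for *NPPB* and 0.74 ± 0.72 for *NPPA* (adjusted p = 0.988 each, edgeR quasi-likelihood test). None of the 8 members passed the adjusted threshold, as none of the 13728 genes did (0%), and none passed the unadjusted one with the fold change, where 0.794% of genes did in either direction. No member had an unadjusted p of at most 0.05, in DESeq2 either. Without sham pig 12 the log2 fold changes were 4.97 for *NPPB* and 1.65 for *NPPA* (edgeR, unadjusted p = 0.0021 and unadjusted p = 0.0328, adjusted p = 0.946 each). Thus 2 members passed the unadjusted threshold, where 119 of 13873 genes were higher and 55 lower. Without IR pig 2 the log2 fold change of *NPPA* was -0.13.

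When the counts of both zones were summed per pig, which makes the pig the unit, *NPPB* had a log2 fold change of 2.71 ± 0.95 and *NPPA* of 2.04 ± 0.62 (unadjusted p = 0.0177 and unadjusted p = 0.00836, adjusted p = 0.634 each, edgeR quasi-likelihood test over 14681 genes). These were again the 2 members past the unadjusted threshold, against 1.69% of genes higher, and 0 members and 0% of genes passed the adjusted one. DESeq2 likewise gave 2 members unadjusted and 0 adjusted, beside 232 and 18 of 14681 genes higher and 62 and 6 lower. The mean log2 CPM of both zones was higher for *NPPB* in each IR pig than in any sham pig (7.59 against 3.92; exact permutation test, p = 0.0286), as in 1.45% of genes. For *NPPA* the corresponding means were 6.39 and 4.26 and 3 of 4 IR pigs were above all sham pigs (exact permutation test, p = 0.114).

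**Figure D2:**
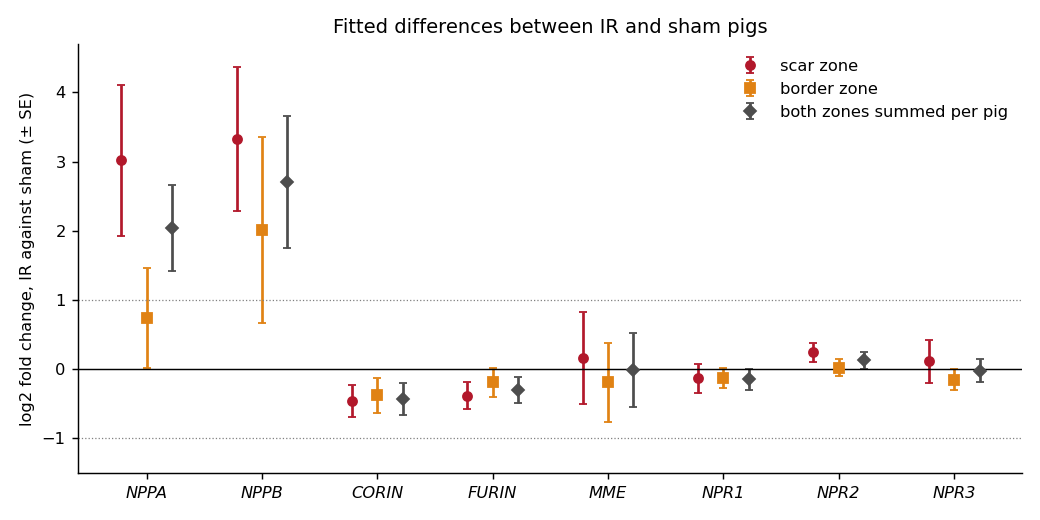
Fitted log2 fold changes of the 8 members tested, IR against sham, with SE, in the scar zone, the border zone and both zones summed per pig (edgeR). Dotted lines mark a fold change of 2. *NPPB* and *NPPA* stand at 3.33 and 3.02 in the scar zone, and no protease or receptor reaches the dotted lines in any of the 3 comparisons.

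Zones of the same heart were compared next. *NPPA* was higher in the scar zone than in the border zone in 4 of 4 IR pigs, by 1.77-fold in pig 2, 5.89-fold in pig 9, 2.73-fold in pig 11 and 1.10-fold in pig 14. In 10.6% of genes all 4 IR pigs were likewise higher in the scar zone. Sham pigs went both ways: *NPPA* was 2.57-fold and 2.03-fold higher in the scar zone of pigs 4 and 13 and 2.69-fold and 189.8-fold higher in the border zone of pigs 5 and 12. For *NPPB* the scar zone was higher in 3 of 4 IR pigs and in 2 of 4 sham pigs, and in sham pig 12 the border zone was 42.2-fold higher. Pig 12 thus had the largest zone difference of both peptides among the 8 pigs.

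Scar minus border log2 CPM was 1.24 ± 1.03 in IR and -1.61 ± 4.05 in sham pigs for *NPPA* (SD, n = 4 each; exact permutation test, p = 0.229) and 1.31 ± 1.54 and -0.35 ± 3.70 for *NPPB* (exact permutation test, p = 0.457). The fitted difference of the IR effect between zones was 2.29 ± 1.39 for *NPPA* and 1.34 ± 1.81 for *NPPB* (adjusted p = 1.00 each, edgeR quasi-likelihood test over 14278 genes). No member passed the adjusted threshold for this difference (0% of genes did) or the unadjusted one with the fold change (1.37% of genes), and none had an unadjusted p of at most 0.05, in DESeq2 either. Without sham pig 12 the difference was 0.96 for *NPPA* and -1.98 for *NPPB*. These fits did not use the pairing of the zones within a pig. With the pig as replicate block the difference was 2.07 ± 1.44 for *NPPA* and 1.12 ± 1.70 for *NPPB* (edgeR, adjusted p = 0.738 and adjusted p = 0.877).

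Within IR pigs, scar against border zone gave 0 of 8 members past the adjusted threshold (0% of 14170 genes) and 0 past the unadjusted threshold with the fold change (1.76% of genes). *NPR3* alone had an unadjusted p below 0.05, at a log2 fold change of 0.54 ± 0.24 (unadjusted p = 0.0475, adjusted p = 0.989, edgeR quasi-likelihood test), as 4.35% of all genes did, and DESeq2 named the same gene. With the pig as replicate block, *NPPA* passed the unadjusted threshold at 1.26 ± 0.37 (edgeR, unadjusted p = 0.0125, adjusted p = 0.431), as 1.64% of genes did. Without IR pig 14 and with no block it passed too, at 1.42 ± 0.56 (unadjusted p = 0.0376, adjusted p = 0.911). Under the block *NPR2* had 0.29 ± 0.08 (unadjusted p = 0.0126, adjusted p = 0.431) and *NPR3* 0.47 ± 0.22 (unadjusted p = 0.0737, adjusted p = 0.437). The unadjusted p alone was then under 0.05 for 2 of 8 members, *NPPA* and *NPR2*, and for 11.3% of all genes. In sham pigs no member passed (0% of 13803 genes adjusted, 0.101% unadjusted), and none had an unadjusted p of at most 0.05 in edgeR. DESeq2 gave no p for *NPPB* there.

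The proteases of peptide processing had lower means in IR pigs, with overlap between the operations. *CORIN* measured 162, 105, 171 and 158 CPM in the scar zone of IR pigs 2, 9, 11 and 14 and 131, 245, 252 and 188 CPM in sham pigs 4, 5, 12 and 13. Sham pig 4 lay among the IR pigs, and the other 3 sham pigs were above all of them. The lowest scar zone value was that of IR pig 9, whose cardiomyocyte markers were the lowest of all samples (15700 CPM) and whose fibroblast markers were high (24398 CPM), and its border zone, at 23369 CPM of cardiomyocyte markers, held 106 CPM of *CORIN*. For the scar zone the fitted log2 fold change was -0.46 ± 0.23 (unadjusted p = 0.0710, adjusted p = 0.470, edgeR quasi-likelihood test) and for the border zone -0.38 ± 0.25 (unadjusted p = 0.163, adjusted p = 0.988). Without sham pig 4 these were -0.63 (unadjusted p = 0.0122, adjusted p = 0.606, edgeR) and -0.58 (unadjusted p = 0.00887, adjusted p = 0.999), both short of a fold change of 2. The order of the pigs was similar in the border zone, with 137, 106, 177 and 164 CPM in the IR pigs and 104, 229.7, 209.5 and 217 CPM in the sham pigs.

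*FURIN* measured 113, 64.6, 68.7 and 100.5 CPM in the scar zone of IR pigs 2, 9, 11 and 14 and 101, 132, 111 and 107 CPM in sham pigs 4, 5, 12 and 13. Males 9 and 11 were the low IR samples, and the groups overlapped. Their scar zone samples also held high fibroblast sums (24398 and 33176 CPM). In the border zone the same pigs were the low IR samples too, at 79.3 and 65.7 CPM of *FURIN*, with fibroblast sums of 5219 and 7861 CPM. The part of these markers in the *FURIN* values was not tested. *FURIN* had a fitted log2 fold change of -0.39 ± 0.19 for the scar zone (adjusted p = 0.476, edgeR quasi-likelihood test) and -0.19 ± 0.21 for the border zone (adjusted p = 0.988). The scar zone value had an unadjusted p under 0.05 in 3 alternatives: with 1 factor of unwanted variation (-0.40, unadjusted p = 0.0091, adjusted p = 0.189, edgeR), with sex as a covariate (-0.42, unadjusted p = 0.0203, adjusted p = 0.254) and without IR pig 2 (-0.55, unadjusted p = 0.0160, adjusted p = 0.229). Each was under a fold change of 2. By the unadjusted p alone, in either direction, 2299 of 14023 genes passed with 1 factor and 2216 of 14023 with sex. Without IR pig 2 it was 2588 of 14238 genes, and in the main fit 1572 of 14023.

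No receptor transcript reached a fold change of 2 between the operations in either zone. *NPR1*, the receptor of both cardiac hormones, measured 25.2, 24.5, 49.1 and 29.9 CPM in the scar zone of IR pigs 2, 9, 11 and 14 and 36.0, 35.6, 38.1 and 30.9 CPM in sham pigs 4, 5, 12 and 13. Pig 11 was above all sham pigs and the other 3 IR pigs were below them. IR against sham, the log2 fold change of *NPR1* was -0.13 ± 0.22 for the scar zone (adjusted p = 0.799, edgeR quasi-likelihood test) and -0.13 ± 0.14 for the border zone (adjusted p = 0.988). Without IR pig 11 the scar zone value was -0.41 ± 0.13 (unadjusted p = 0.0125, adjusted p = 0.840, edgeR).

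*NPR2*, the receptor of the C-type peptide, measured 49.4, 44.1, 37.3 and 34.0 CPM in the IR scar zone and 37.8, 31.5, 35.6 and 33.7 CPM in the sham scar zone, in the same order of pigs. The border zone of IR pigs was lower in every case, at 37.7, 36.4, 28.1 and 32.2 CPM. Scar minus border log2 CPM was 0.29 ± 0.15 in IR and 0.06 ± 0.12 in sham pigs (SD, n = 4 each; exact permutation test, p = 0.0571). Against sham, the log2 fold change of *NPR2* was 0.24 ± 0.14 for the scar zone (adjusted p = 0.501, edgeR quasi-likelihood test) and 0.02 ± 0.12 for the border zone (adjusted p = 0.995).

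The clearance receptor *NPR3* was even across the IR border zone, at 31.9 to 38.8 CPM, and spread out in the scar zone, at 59.5, 41.8, 32.6 and 74.4 CPM in IR pigs 2, 9, 11 and 14 and 49.1, 38.3, 31.8 and 72.2 CPM in sham pigs 4, 5, 12 and 13. The operations overlapped fully. Fitted log2 fold changes were 0.11 ± 0.31 for the scar zone (adjusted p = 0.885, edgeR quasi-likelihood test) and -0.16 ± 0.15 for the border zone (adjusted p = 0.988). Per length, *NPR1* exceeded *NPR3* in 8 of 8 border zone samples, with ratios of 1.26 to 1.81. *NPR3* exceeded *NPR1* in the scar zone of IR pigs 2, 9 and 14 (ratios 0.681, 0.936 and 0.642) and in sham pig 13 (0.689), and *NPR1* was ahead in the other 4 samples.

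*MME* (neprilysin), a membrane peptidase that degrades the natriuretic peptides among others, differed more between pigs than between operations. In the scar zone it measured 1.27, 11.3, 16.5 and 9.06 CPM in IR pigs 2, 9, 11 and 14 and 4.97, 18.3, 6.58 and 4.23 CPM in sham pigs 4, 5, 12 and 13. The fit gave log2 fold changes of 0.16 ± 0.67 for the scar zone (adjusted p = 0.926, edgeR quasi-likelihood test) and -0.19 ± 0.57 for the border zone (adjusted p = 0.993). The lowest value belonged to IR pig 2, with 22 estimated counts, and the highest of the scar zone to sham pig 5.

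**Figure D3:**
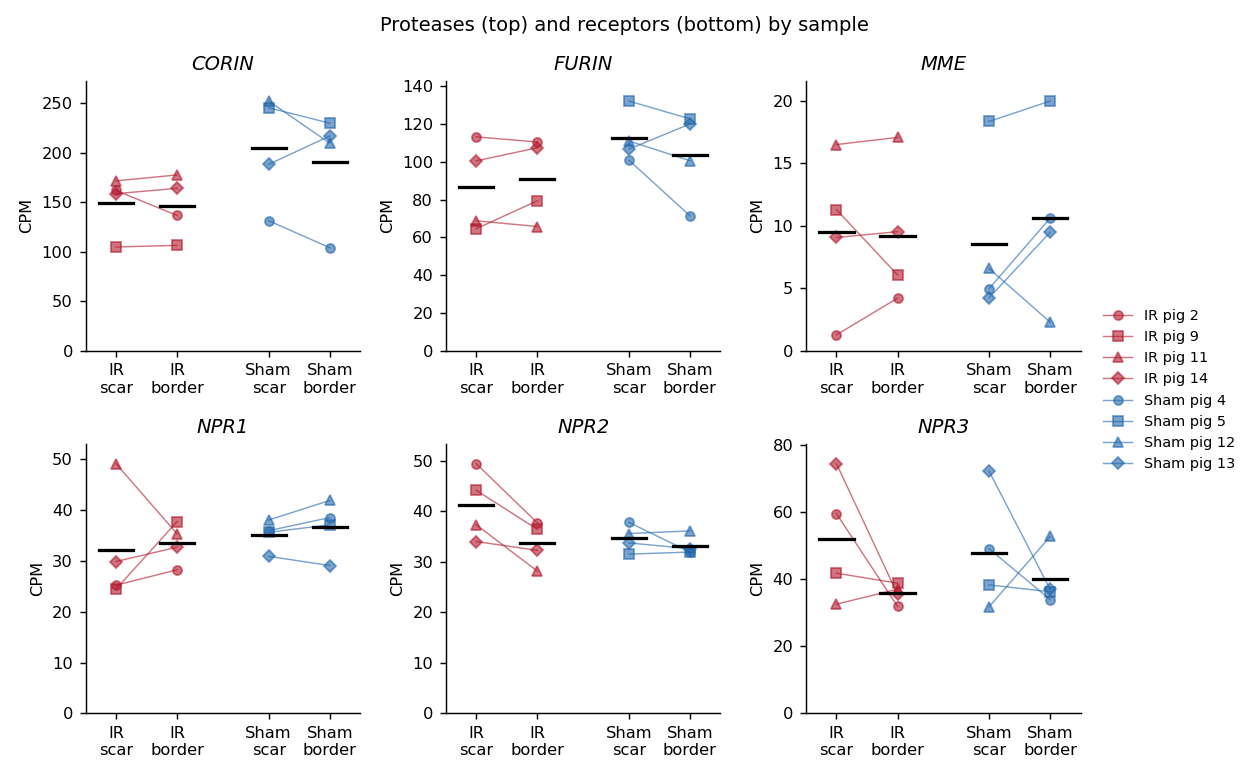
CPM of *CORIN*, *FURIN* and *MME* (top) and *NPR1*, *NPR2* and *NPR3* (bottom) for each sample on linear axes from 0. Lines join the zones of a pig and black bars are means of 4 pigs. IR and sham values overlap in each panel, and *NPR2* is lower in the border zone of each IR pig, at 28.1 to 37.7 CPM against 34.0 to 49.4 CPM in the scar zone.

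*NPPC*, the peptide ligand of NPR2, was at the limit of detection. Its TPM was 0 to 0.385, and over both zones its unfiltered log2 fold change was 0.29 ± 0.50 (edgeR, adjusted p = 0.858). Osteocrin (*OSTN*), another ligand of the clearance receptor, was also low, at 0.0436 to 0.424 TPM, and was tested only in the border zone, where its log2 fold change was 0.16 ± 0.50.

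Further genes of the system were followed as lists. Of other enzymes and inhibitors of peptide processing and breakdown, such as the convertase PCSK6 that activates corin and the insulin-degrading enzyme, 10 of 11 were tested in each zone and 0 passed the unadjusted threshold with the fold change in either direction, which 3.35% of all genes did for scar and 0.794% for border samples (median log2 fold change 0.09 for the scar and -0.02 for the border zone, against 0.03 and 2.7e-05 over all genes). By the unadjusted p alone 1 of the 10 was lower in the IR scar zone, *PCSK6* (-0.45 ± 0.16), and 0 in the border zone, against 4.64% and 1.69% of all genes. Of the genes that make, sense or break down cyclic GMP, 15 had an entry, 14 were tested and 0 passed in either zone (medians -0.07 and -0.19). The unadjusted p alone gave 1 of the 14 as higher in the scar zone, *RGS2* (0.73 ± 0.28), 2 as lower, the phosphodiesterases *PDE1C* (-0.77 ± 0.25) and *PDE3A* (-0.63 ± 0.21), and 2 as lower in the border zone, *PDE1C* (-0.67 ± 0.22) and *PDE9A* (-0.69 ± 0.20), all named after their values were seen (edgeR, adjusted p = 0.438 for scar and adjusted p = 0.988 for border). Of all genes 6.57% were higher and 4.64% lower by this measure in the scar zone, and 1.69% were lower in the border zone. The 15 transcription factors known to act on the *NPPA* and *NPPB* genes, among them GATA4, NKX2-5, TBX5, MEF2C, SRF and TEAD1, also gave 0 in both zones, with positive log2 fold changes for 2 of 15 in the scar zone and 7 of 15 in the border zone (medians -0.26 and -0.01), against 53.9% and 50% of all genes. Without regard to the fold change, 4 of the 15 had an unadjusted p under 0.05 as lower in the IR scar zone, where 4.64% of all genes did, and 0 as higher. They were *HAND2* (-0.80 ± 0.21), *NKX2-5* (-0.69 ± 0.27), *MYOCD* (-0.48 ± 0.20) and *TEAD1* (-0.32 ± 0.14; edgeR, adjusted p = 0.438 for the first 3 and adjusted p = 0.441 for the last), named after their values were seen. For the border zone 2 were lower by the same measure, *TBX3* (-0.59 ± 0.22) and *TBX2* (-0.37 ± 0.15), where 1.69% of all genes were.

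Cardiomyocyte stress genes, known to be induced by load, had 8 of 10 listed genes tested, and 0 of 8 passed the adjusted threshold in either zone. All 8 log2 fold changes were above 0 in both zones, with medians of 0.53 (scar) and 0.71 (border) beside all-gene medians of 0.03 and 2.7e-05, but *MYH7* stood at 0.00084 ± 0.21 in the scar zone. By the unadjusted p alone 4 of 8 were higher in the scar zone and 2 of 8 in the border zone, against 6.57% and 2.09% of all genes. With the fold change 1 passed in each zone, against 2.74% of genes higher in the scar and 0.517% in the border zone: *MYL4*, the atrial light chain that fetal ventricle also makes, in the scar zone (1.82 ± 0.78, adjusted p = 0.441) and *FHL1*, a LIM protein of the sarcomere, in the border zone (1.06 ± 0.39, adjusted p = 0.988, edgeR quasi-likelihood test). *MYH6* and *MYL7* had no entry under their symbols.

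Markers of other cell types were read in the same fits. In the scar zone the fibroblast genes *COL1A1* (1.96 ± 0.64), *COL1A2* (1.59 ± 0.61) and *POSTN* (1.85 ± 0.70), the contractile gene *CNN1* (1.17 ± 0.43) and the epicardial gene *TBX18* (1.20 ± 0.48) passed the unadjusted threshold as higher in IR, and *CNTN2*, a marker of Purkinje fibres, as lower (-1.51 ± 0.40; log2 fold changes ± SE). In the border zone *CNN1* (1.85 ± 0.73) and *CNTN2* (-1.96 ± 0.59) did so and 0 of 8 fibroblast genes did. These were 3 of 8 fibroblast and 1 of 3 epicardial genes tested in the scar zone, and in each zone 1 of 7 smooth muscle and pericyte genes and 1 of 4 conduction system genes. Of all genes 2.74% were higher and 0.613% lower by this threshold in the scar zone, and 0.517% and 0.277% in the border zone. The medians of the last lists were 0.02 (smooth muscle) and -0.28 (conduction) for scar samples and -0.19 and -0.43 for border samples, with positive values for 5 of 7 and 2 of 4 and for 1 of 7 and 0 of 4. No marker of cardiomyocytes (6 tested), endothelium (8) or leucocytes (6) passed in either zone, nor any endocardial (3 and 2 tested) or adipocyte gene (2 and 3). The atrial markers summed to 36.3 to 100.2 CPM in the IR scar zone, 40.5 to 68.1 in the sham scar zone, 45.1 to 99.9 in the IR border zone and 42.4 to 84.3 in the sham border zone, *MYL4* included. Cardiomyocyte markers summed to 15700 to 23208 CPM in the IR scar zone and to 20306 to 27386 CPM in the sham scar zone, the lowest in pig 9.

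The peptides were related to each other and to their proteases and receptors over the 8 pigs of each zone, with 15 pairs and 30 correlations of log2 CPM in all. *NPPA* and *NPPB* went together: Pearson's r was 0.79 for scar and 0.80 for border samples (exact permutation p = 0.0148 and p = 0.0208, adjusted p = 0.312 each), and Spearman's rho was 0.83 and 0.81 (exact permutation p = 0.0154 and p = 0.0218, adjusted p = 0.279 each). Leaving out the 2 pigs farthest from the median of *NPPA* gave r = 0.73 in the scar zone (without pigs 12 and 2) and 0.61 in the border zone (without pigs 2 and 4). After subtraction of the surgery group means r was 0.60 and 0.80. Sham pig 12 was at the low end of the scar zone and the high end of the border zone for both genes.

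**Figure D4:**
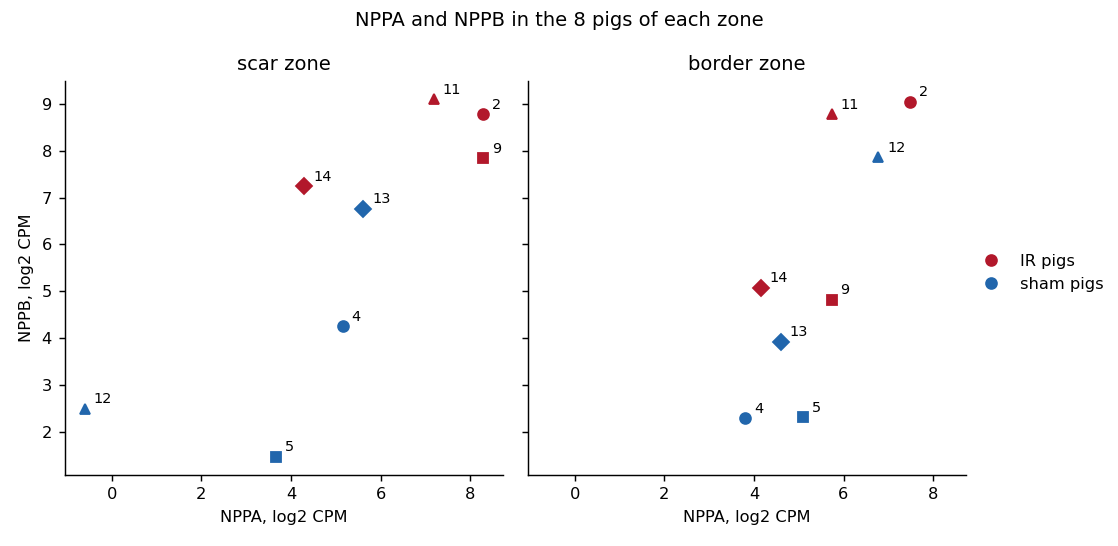
Log2 CPM of *NPPB* against *NPPA* in the 8 pigs of the scar zone (left) and of the border zone (right), with the pig numbers beside the points. Pearson's r is 0.79 and 0.80, and sham pig 12 moves from the lower left of the scar zone to the upper right of the border zone.

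Peptides and corin did not run in parallel. *NPPA* correlated with *CORIN* in the scar zone at r = -0.72 (exact permutation p = 0.0432, adjusted p = 0.324) and rho = -0.57 (exact permutation p = 0.151, adjusted p = 0.729), and at r = -0.68 without pigs 12 and 2. In the border zone r was 0.09 (exact permutation p = 0.834, rho = 0.14). *NPPB* and *CORIN* gave r = -0.60 in the scar zone (exact permutation p = 0.118, adjusted p = 0.507), which rested on pigs 5 and 12, since r was 0.24 without them, and r = 0.07 in the border zone. After subtraction of the surgery group means the scar zone r was -0.58 for *NPPA* and -0.32 for *NPPB*. *NPPB* and *FURIN* gave r = -0.64 in the scar zone (exact permutation p = 0.0885, adjusted p = 0.488), -0.29 after that subtraction, and -0.16 in the border zone. The r of *NPPA* and *NPPB* lay between -0.39 and 0.35 with *NPR1* and *NPR3*, and between -0.62 and -0.20 with *MME*. *NPPC* and *NPR3* gave r = -0.69 in the border zone (exact permutation p = 0.0421, adjusted p = 0.324; rho = -0.74, r = -0.57 without pigs 13 and 12), where *NPPC* held 1 to 7 counts. *NPPC* and *FURIN*, its convertase, gave rho = 0.79 in the scar zone (exact permutation p = 0.0279, adjusted p = 0.279) with r = 0.38 (exact permutation p = 0.355), where *NPPC* held 0 to 5 counts. In all 4 of 30 correlations, the pair of *NPPA* and *NPPB* in both zones included, had an unadjusted Pearson p of at most 0.05, and 0 of 30 had an adjusted one (smallest 0.312, and 0.279 for Spearman's rho). With 4 females and 4 males per zone, no value within a sex was computed.

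The balance of the peptides differed between hearts. Per length, *NPPB* over *NPPA* ranged from 0.0562 to 3.70 and exceeded 1 in 5 of 16 samples, 2 of the IR scar zone, 2 of the IR border zone and the scar zone of sham pig 12. Together they reached 247 to 2043 TPM in the IR scar zone, 105 to 1290 in the IR border zone, 9.03 to 292 in the sham scar zone and 43.9 to 714 in the sham border zone. All 4 ranges overlapped their neighbours.

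Genes with the most similar pattern were taken as the 5 with the highest Pearson r of log2 CPM over the 16 samples, among 12863 genes with a symbol. The samples share pigs, groups and depth, and the values are a description. For *NPPB* they included *SCN3B* (0.94), a sodium channel subunit that ranged from 3.55 to 389 CPM, *SRC* (0.90), *TNNT1* (0.90), the slow skeletal troponin T, and *SLCO3A1* (0.89), and *NPPA* came at rank 131 (0.74). For *NPPA* they were *MYL4* (0.86), *VPS37C* (0.81), *SCN3B* (0.81), *LRRC4* (0.80) and *PGAP2* (0.80), with *NPPB* at rank 18. *SCN3B* was thus on both lists.

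*CORIN* was most like *OAZ3* (0.83), which did not exceed 1.81 CPM, *A2M* (0.82), *NR3C2* (0.81), the mineralocorticoid receptor, *KIF13B* (0.81) and *DICER1* (0.79), and *FURIN* stood at rank 81 (0.64). *NPR1* was most like *RPUSD4* (0.79), *IQCK* (0.78), *STXBP6* (0.74), *TENT5C* (0.73) and *TMCC3* (0.72). Those of *NPR3* included *CHMP4C* (0.81), *CPA6* (0.80), *RGS6* (0.75) and *TBX3* (0.73). Neither receptor had another member of the system among its 5 genes.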

How the data were processed

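The authors sequenced polyadenylated RNA in stranded libraries, trimmed reads (Trimmomatic 0.33), aligned them (HISAT2 2.0.5) and quantified transcripts with kallisto 0.43.1 on Ensembl pig cDNA (versions from the submitters' processing notes; the genome build is not given in the sources used here). The authors deposited estimated counts, not scaled for depth, and TPM. Of 7534 rows listed by Ensembl ID, 889 were named through a gene table.

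Rounded estimated counts were tested in R 4.3.3 by the quasi-likelihood test of edgeR 4.0.16 (TMM, filterByExpr with minimum count 10 and minimum total 15), with Benjamini-Hochberg adjustment over every gene in the fit. The limits are those the study names, at adjusted and at unadjusted p. RUVSeq, which the study used with settings not given in the sources used here, was not run. An alternative instead added 1 factor of unwanted variation, the first singular vector of the centred log counts of 5000 control genes. These were the genes with the largest p in the same comparison of the same samples. The SE printed with edgeR values is the absolute log2 fold change divided by the square root of the F statistic of the test. Log2 CPM used a prior count of 2, and permutation tests were exact and two-sided. All 9 genes were named throughout, list genes where they passed the unadjusted threshold or served as markers, and 5 similar genes for each of *NPPA*, *NPPB*, *CORIN*, *NPR1* and *NPR3*, of which some are not reported here. Members and lists were chosen with earlier results of these data known. The tests were checked on simulated data.

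Both zones of a pig are paired by the animal, and their deviations from the group means correlated at 0.354 to 0.692 in the 8 pigs. Alternatives were DESeq2 1.42.0, upper-quartile scaling, no filter, sex as covariate, all 16 samples in 1 fit, limma 3.58.1 on log2(TPM + 1) and log2(TPM + 0.1) (at least 1 TPM in 4 samples), the pig as a block, and each pig left out. Promoter motifs were not examined.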

Additional observations from a re-analysis of the deposited data

Results flagged for a closer look

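Among the 36 sets of 4 samples (9 genes in 4 groups, log2 CPM), 3 held a sample whose gap to the nearest other sample, divided by the range of the set, exceeded Dixon's critical value for 4 samples at the 95% level. Chance alone flags about 1 in 20 sets. *CORIN* was low in the scar zone of IR pig 9 (0.841), at 105 CPM against 158 to 171 CPM in the other 3 IR pigs. That sample also had the lowest sum of cardiomyocyte markers of the 16 (15700 CPM) and a fibroblast sum of 24398 CPM, whose part in the value was not tested. It was also low in the border zone of sham pig 4 (0.884), at 104 CPM against 209.5 to 229.7 CPM. *NPR2* was high in the border zone of sham pig 12 (0.834), at 36.1 CPM against 31.9 to 32.6 CPM, in the sample that also held the highest *NPPA* and *NPPB* of the sham border zone.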

How the results depend on the processing

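0 members were called at the adjusted p in each of the 6 comparisons under every alternative run. NPPA and NPPB had positive log2 fold changes in the scar zone under 16 of 16 alternatives (2.60 to 3.83 and 2.94 to 5.23, adjusted p 0.187 to 0.840 and 0.142 to 0.840) and over both zones under 15 of 15 (1.62 to 2.40 and 2.32 to 3.51, adjusted p at least 0.116). In the border zone NPPB was positive in 16 of 16 (1.38 to 4.97) and NPPA in 15 of 16 (-0.13 to 1.65), leaving out 1 pig setting both ends. Leaving out 1 pig, the members past the unadjusted threshold were 1 to 2 in the scar zone, 0 to 2 in the border zone and 0 to 1 for scar against border zone in IR pigs. The last count was 1 with the pig as replicate block, where NPPA passed. The block turned NPR1 for the difference between zones (-0.055), MME in IR pigs (-0.098) and NPPB in sham pigs (0.14), and it changed no other direction. The cause was not tested.

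Of 552 log2 fold changes of single members recomputed, 39 changed direction, 0 of them with an unadjusted p of at most 0.05. For IR against sham, leaving out 1 pig gave in the scar zone -0.11 to 0.38 for NPR3 and -0.24 to 0.85 for MME, in the border zone -0.038 to 0.098 for NPR2, -0.23 to 0.0023 for NPR3 and -0.69 to 0.31 for MME, and over both zones -0.15 to 0.11 for NPR3 and -0.46 to 0.56 for MME. Between zones it gave -1.98 to 3.57 for NPPB, -0.26 to 0.15 for NPR1 and -0.038 to 0.58 for NPR3. Scar against border zone gave -0.050 to 0.065 for CORIN, -0.31 to 0.12 for NPR1 and -0.20 to 0.17 for MME in IR pigs, and -1.69 to 0.43 for NPPA, -3.16 to 2.39 for NPPB and -0.046 to 0.58 for NPR3 in sham pigs. Other turns were MME with 1 factor of unwanted variation (-0.18), NPR1 between zones in DESeq2 (-0.016), and over both zones NPR3 with limma on log2 TPM (0.077 and 0.085) and MME likewise (0.071 and 0.054) and with sex as covariate (0.017). On TPM the median log2 fold change of all genes in the scar zone was 0.15 and 0.17, against 0.03 in edgeR. The depth limits NPPC, with at most 7 counts in a sample, which was tested only with no filter.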
